A study of Rattus norvegicus with 36 samples.

Results

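Genes that build the protein import machinery of mitochondria, shape the organelle and keep its proteins in order were examined in rat soleus, the slow postural muscle of the calf, after spinal cord injury (SCI). They were taken as every gene on the array whose single symbol starts with Timm or Tomm, together with named genes of fusion, fission, cristae, internal proteases, processing peptidases, porins and mitophagy. Of the 14217 genes on the array with a single symbol, 43 met this rule, each read from its brightest probe set. Phb and Timm23 were left out because each of their probe sets carries several symbols. The members comprised 9 genes grouped as outer import, 14 as inner import, 3 of fusion, 2 of fission, 3 of cristae and membrane assembly, 5 proteases, 2 processing peptidases, 3 porins and the mitophagy kinase Pink1. Both import groups follow the prefix and not the place of the protein. Outer import thus includes Tomm34, which is cytosolic, and inner import the small TIM chaperones of the space between the membranes. The remaining member, Timmdc1, is named by its prefix but encodes an assembly factor of respiratory complex I.

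The muscles came from female Sprague Dawley rats aged 16 weeks at the start of the study, 6 per group with 1 array per rat. CTR rats had no injury and no training. The SCI3d, SCI8d and SCI14d rats had a moderate contusion of the thoracic cord under anaesthesia, received no training and were killed on day 3, 8 or 14 after it. SCI8d+TM and SCI14d+TM rats had the same injury and stepped on a treadmill from day 7, the first with 3 sessions and the latter with 2 sessions per day on 5 days, each session lasting 20 min. Their muscles were taken 8 h after the last session. The contusion was incomplete, and body weight was supported by hand where needed during training. The labels name the CTR rats as controls and mark them as taken before injury, and the paper calls these rats age-matched controls that served as the baseline. Laminectomy, anaesthesia and the analgesia given after SCI therefore cannot be told apart from the contusion. The same holds for the dough diet that the paper gave to experimental animals.

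Nearly all mitochondrial proteins are made in the cytosol. The TOM complex of the outer membrane recognises and admits them, and the TIM23 and TIM22 complexes of the inner membrane pass them into the matrix or insert them into the membrane, with small TIM chaperones carrying hydrophobic clients between. Mitofusins and Opa1 fuse mitochondria, Dnm1l and its adaptors divide them, and proteases of the matrix and inner membrane remove damaged or unassembled subunits. In slow oxidative muscle, which is rich in mitochondria, these genes are highly expressed. In the present data 40 of the 43 members lay above the median gene in mean signal and 20 lay in the brightest 10%, although the brightness of different probe sets is no measure of relative transcript number.

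Promoter sequences are shown for members from both temporal patterns described further on, namely Tomm20 and Tomm70, which had their highest mean on day 3, and Mfn1, Phb2 and Samm50, which were lower after SCI. Many genes of mitochondrial proteins carry a site for GABP, an ETS family factor also called nuclear respiratory factor 2. The core letters CCGGAAG were searched on both strands in RefSeq windows (build GRCr8) from 250 bases before to 50 bases after the transcript start, which were found for 36 of the 43 members. Below, capitals mark this motif or its reverse complement in the part of the window from 100 bases before to 50 after the start, written 5′ to 3′ in the sense of the gene.
Tomm20, chr19:71832371-71832520, minus strand: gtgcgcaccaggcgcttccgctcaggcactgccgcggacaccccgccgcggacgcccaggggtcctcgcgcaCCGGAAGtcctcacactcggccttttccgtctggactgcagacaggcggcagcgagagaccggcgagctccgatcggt
Tomm70, chr11:56886227-56886376, minus strand: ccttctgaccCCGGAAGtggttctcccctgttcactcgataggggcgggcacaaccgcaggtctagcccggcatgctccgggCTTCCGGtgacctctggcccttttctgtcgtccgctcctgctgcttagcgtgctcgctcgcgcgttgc
Mfn1, chr2:117241658-117241807, plus strand: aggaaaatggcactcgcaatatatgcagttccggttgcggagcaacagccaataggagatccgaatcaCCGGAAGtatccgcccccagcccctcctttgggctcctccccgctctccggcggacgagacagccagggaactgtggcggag
Phb2, chr4:159203848-159203997, plus strand: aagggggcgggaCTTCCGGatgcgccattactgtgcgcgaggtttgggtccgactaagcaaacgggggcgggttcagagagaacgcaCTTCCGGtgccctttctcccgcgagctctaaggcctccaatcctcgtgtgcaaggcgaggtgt
Samm50, chr7:117197360-117197509, plus strand: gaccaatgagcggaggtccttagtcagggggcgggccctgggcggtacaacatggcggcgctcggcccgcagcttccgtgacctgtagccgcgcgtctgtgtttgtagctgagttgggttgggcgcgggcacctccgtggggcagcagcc

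The motif occurred in 14 of the 36 member windows (38.9%), against 9.21% of all 27457 windows and 15.0% of the 11701 windows whose gene is on the array. Tomm70 and Phb2 each showed it at least 2 times in the stretch printed, Tomm20 and Mfn1 once, and Samm50 not at all. Beyond these, it was found in Tomm22, Timm10, Timm10b, Timm8a2, Timm8b, Timmdc1, Fis1, Pmpca, Pmpcb and Yme1l1. Of the 14 members with the motif, 3 were significantly lower than CTR on at least 1 day after SCI, and of the 22 without it 8 were. The difference between these sets was not tested, and the share of all genes lower on at least 1 day was not counted. Other motifs of mitochondrial genes were rare in these windows. The NRF1 letters GCGCATGCG stood only in Tomm7 (2.78% of the 36 member windows), in overlapping copies on both strands. They occurred in 1.65% of all windows and 2.83% of those whose gene is on the array. The YY1 letters AAGATGGCG stood in Timm50 and Tomm40l (5.56%, against 1.92% and 3.12%). The oestrogen related receptor letters TCAAGGTCA stood in Timm8b (2.78%, against 0.397% and 0.205%). A match describes letters in these windows and is no evidence of binding.

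Among the 43 members, 22 differed among the 6 groups in limma's F test at an adjusted p under 0.05 (51.2%, against 29.1% of all genes). Against CTR, 8 members were lower and 1 was higher on day 3, 8 were lower and 0 higher on day 8, and 7 were lower and 0 higher on day 14. Of all genes, 12.6%, 4.99% and 2.59% were called lower at these times, and called higher 8.98%, 3.44% and 1.86%. Timm21, Mfn2, Samm50 and Phb2 were lower at all 3 times, Mfn1 and Timm8a1 at 2 of them, and 7 further members at 1 time, while 29 members were not called on any day. The 3 comparisons share the CTR arrays, so that calls at several times are not independent. The shares of all genes lower at several times or never called were not counted. The members' median log2 difference from CTR was -0.06, -0.19 and -0.27 in that order, where the median over all genes was -0.07, -0.01 and 0.06. With arrays centred on their median, the members' median on day 3 was 0.03 instead, whereas on days 8 and 14 it stayed negative. In whole muscle, fewer cells of a type and less RNA per cell cannot be told apart.

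**Figure D1:**
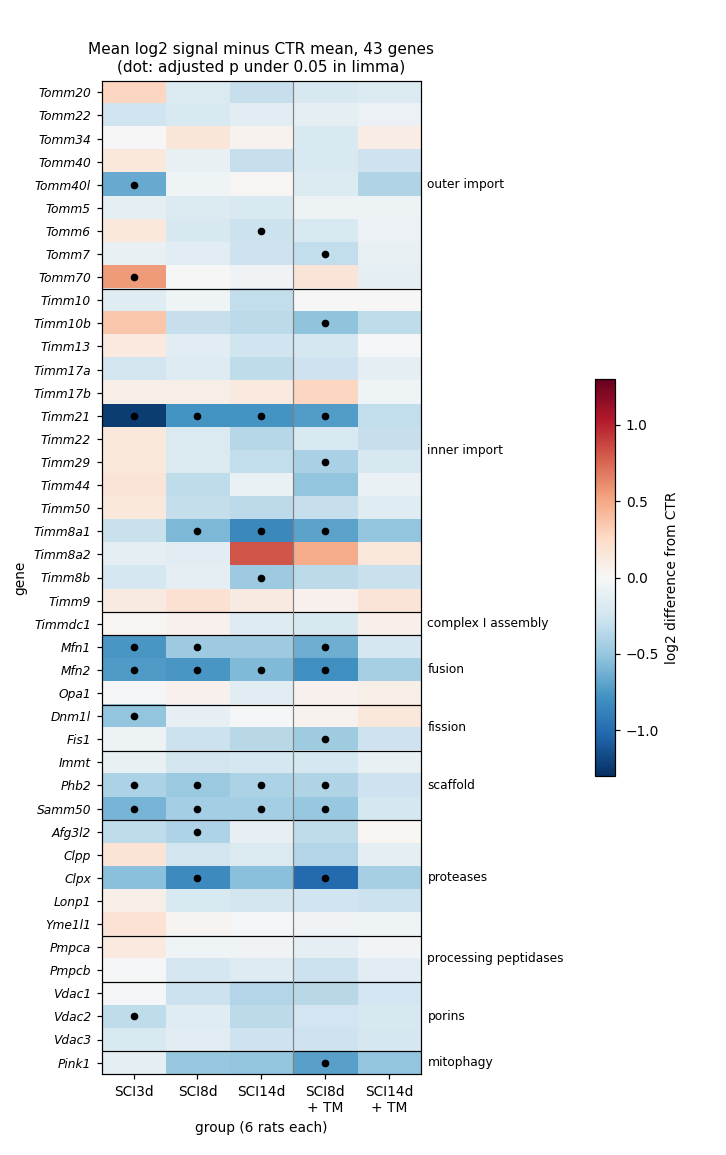
Mean log2 signal of each of the 43 genes in the 5 groups after SCI minus its mean in CTR (colour, log2 difference from CTR; 6 rats per group), with rows grouped by role and a dot where limma's adjusted p was under 0.05. Timm21, Mfn2, Phb2 and Samm50 carry a dot on all 3 days without training, Tomm70 on day 3 is the only gene above CTR with a dot, and SCI14d+TM has none.

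Of the 9 outer import genes, 1 was higher and 1 lower on day 3, and 7 were not called then. Tomm70, a receptor for carrier precursors and their chaperones, had a signal of 3134 to 4938 (median 3760.4) in CTR and 4509 to 6657 (median 5862) in SCI3d. It was thus 1.46-fold of CTR on day 3 (log2 difference 0.55 ± 0.12, SE here and below; adjusted p = 0.00121), although the groups overlapped. In SCI8d it was 3375 to 5117 (median 3623) and in SCI14d 3403 to 4607 (median 3622), both overlapping with CTR. The other probe set of Tomm70 was also higher on day 3 but did not pass the test (log2 difference 0.22 ± 0.11, adjusted p = 0.193).

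Tomm20, the receptor for presequences, showed 14968 to 16014 (median 15303) in CTR, 15153 to 20741 (median 19085) in SCI3d, 11757 to 16760.5 (median 13059.8) in SCI8d and 10378 to 14234 (median 12566) in SCI14d. Its day 3 mean lay above CTR without passing the test on the brightest probe set (0.28 ± 0.10, adjusted p = 0.0556), and its other probe set passed (0.46 ± 0.11, adjusted p = 0.00263). All SCI14d values were below all CTR values, but that difference did not pass either (-0.30 ± 0.10, adjusted p = 0.0896). Tomm6, a small subunit that stabilises the TOM channel, ran from 6136 to 6939 in CTR, 6266 to 7869 in SCI3d, 5038 to 6186 in SCI8d and 4836 to 5751 in SCI14d. It was lower on day 14 (-0.27 ± 0.08, adjusted p = 0.0491) with no overlap between the groups. This call was lost when any of 10 of the 12 arrays compared was left out.

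Of the other TOM genes, Tomm40l, a close relative of the channel Tomm40, was lower on day 3 (-0.66 ± 0.23, adjusted p = 0.0492). Its signal was 132 to 241 (median 187) in SCI3d against 134 to 421 (median 321) in CTR, and the lowest CTR array, at 134, lay next to the lowest SCI3d array, at 132. The call was lost without any of 9 of the 12 arrays. The dimmer probe set of Tomm40l was lower too (-1.43 ± 0.41, adjusted p = 0.0128). Tomm40, Tomm22, Tomm5, Tomm7 and Tomm34, a cytosolic partner of precursors, were not called at any of the 3 times, with log2 differences from -0.30 for Tomm40 on day 14 to 0.15 for Tomm34 on day 8.

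Inner import held the member with the deepest fall on day 3. Timm21, a subunit that docks the TIM23 translocase to the TOM complex and to the respiratory chain, had 3164 to 4450.3 (median 3764) in CTR. It had 1116 to 1901 (median 1706) in SCI3d, 1868 to 2783 (median 2096) in SCI8d and 1762 to 3158 (median 2138) in SCI14d. None of these 3 groups overlapped with CTR. The level on day 3 was 0.426-fold of CTR (log2 difference -1.23 ± 0.15, adjusted p = 8.98e-07), and the differences were -0.78 ± 0.15 (adjusted p = 0.00237) on day 8 and -0.77 ± 0.15 (adjusted p = 0.00432) on day 14. These calls held under all 14 alternatives and without any of the 12 arrays.

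The other Timm genes measured in the TIM23 complex were not called on day 3. Timm23 itself was left out, and the import motor gene Dnajc19, given further on, was lower on days 8 and 14. Timm50, the receptor that passes presequences on, had a day 3 difference of 0.14 ± 0.14 (adjusted p = 0.592), and Timm17a and Timm17b, which form the channel, had -0.24 ± 0.14 and 0.07 ± 0.12. Timm44, the anchor of the import motor, was dim, with array signals between 97.2 and 466, and its difference was 0.17 ± 0.29. Timm50, Timm17a, Timm17b and Timm44 were not called on days 8 and 14 either. Timm22 and Timm29, which belong to the translocase of carrier proteins, were likewise not called on days 3, 8 or 14.

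Timm8a1, a small TIM whose human counterpart is mutated in a deafness and dystonia syndrome, fell later. Its signal was 1292 to 1688 (median 1507) in CTR, 921 to 1511 (median 1350.4) in SCI3d, 811 to 1291 (median 996) in SCI8d and 724 to 1044 (median 829) in SCI14d. The SCI3d arrays overlapped with CTR, and those of SCI8d and SCI14d were all below it. The difference was -0.29 ± 0.15 (adjusted p = 0.207) on day 3, -0.58 ± 0.15 (adjusted p = 0.0149) on day 8 and -0.84 ± 0.15 (adjusted p = 0.00155) on day 14. The other probe set of Timm8a1 did not show the fall, with -0.08 ± 0.15 on day 14 (adjusted p = 0.839), so that the result rests on 1 of 2 probe sets.

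Timm8b, its relative, was called lower on day 14 and not on days 3 and 8 (-0.47 ± 0.12, adjusted p = 0.0244), with 8784 to 12926 (median 9894) in SCI14d against 12256 to 15008 (median 14359) in CTR. Leaving out any of 5 of the 12 arrays ended this call. Timm9, Timm10, Timm10b and Timm13, chaperones of the space between the membranes, were not called against CTR on days 3, 8 or 14, with differences between -0.35 for Timm10b on day 14 and 0.36 for the same gene on day 3. Timm8a2 was near the bottom of the scale, with array signals between 5.75 and 159 and a within-group SD of 0.96 on the log2 scale, so that its difference of 0.82 ± 0.53 on day 14 could not be told from 0 (adjusted p = 0.450).

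Both mitofusins, which fuse the outer membrane, were lower on days 3 and 8. Mfn2, a mitofusin that also tethers mitochondria to the endoplasmic reticulum, had 8701 to 10937 (median 9640.4) in CTR, 4755 to 8037 (median 5525) in SCI3d, 4433 to 8492 (median 5556) in SCI8d and 5427 to 9919 (median 6065) in SCI14d. All arrays of SCI3d and SCI8d were below all CTR arrays, and 1 SCI14d array, at 9919, lay among the CTR arrays. The log2 difference was -0.74 ± 0.16 (adjusted p = 0.00121) on day 3, -0.76 ± 0.16 (adjusted p = 0.00397) on day 8 and -0.58 ± 0.16 (adjusted p = 0.0404) on day 14. The last of these was lost without any of 10 of the 12 arrays.

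Mfn1, the other mitofusin, had 4076 to 5741 (median 5445) in CTR, 2193 to 4286 (median 2814) in SCI3d, 3068 to 4935 (median 3615) in SCI8d and 2817 to 4464 (median 3819) in SCI14d. It was 0.591-fold of CTR on day 3 (-0.76 ± 0.14, adjusted p = 0.000229), and 1 SCI3d array overlapped with the CTR range. On day 8 it was lower by a smaller margin (-0.48 ± 0.14, adjusted p = 0.0389, lost without any of 9 of the 12 arrays), and on day 14 the same difference did not pass (-0.48 ± 0.14, adjusted p = 0.0568). Opa1, which fuses the inner membrane, was 972 to 1486 (median 1108) in CTR and 945 to 1336 (median 1097) in SCI3d. Its differences on the 3 days were -0.01 ± 0.13, 0.05 ± 0.13 and -0.15 ± 0.13, none of them called, whereas its dimmer probe set was lower on day 3 (-0.34 ± 0.12, adjusted p = 0.0484).

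For fission, Dnm1l, the dynamin that constricts mitochondria, was lower on day 3 and not later. Its signal was 1344 to 2742 (median 2313) in CTR and 1032 to 2041 (median 1538) in SCI3d, with a log2 difference of -0.51 ± 0.16 (adjusted p = 0.0248), and the groups overlapped. On days 8 and 14 it was -0.11 and -0.03 from CTR. The day 3 call was lost without any of 5 of the 12 arrays, and the other probe set did not pass (-0.36 ± 0.19, adjusted p = 0.228). Fis1, a tail-anchored outer membrane protein linked to fission, was 6974 to 8804 (median 8199) in CTR and 5619.6 to 7310.1 (median 6239.6) in SCI14d, a difference that did not pass (-0.37 ± 0.13, adjusted p = 0.0986).

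**Figure D2:**
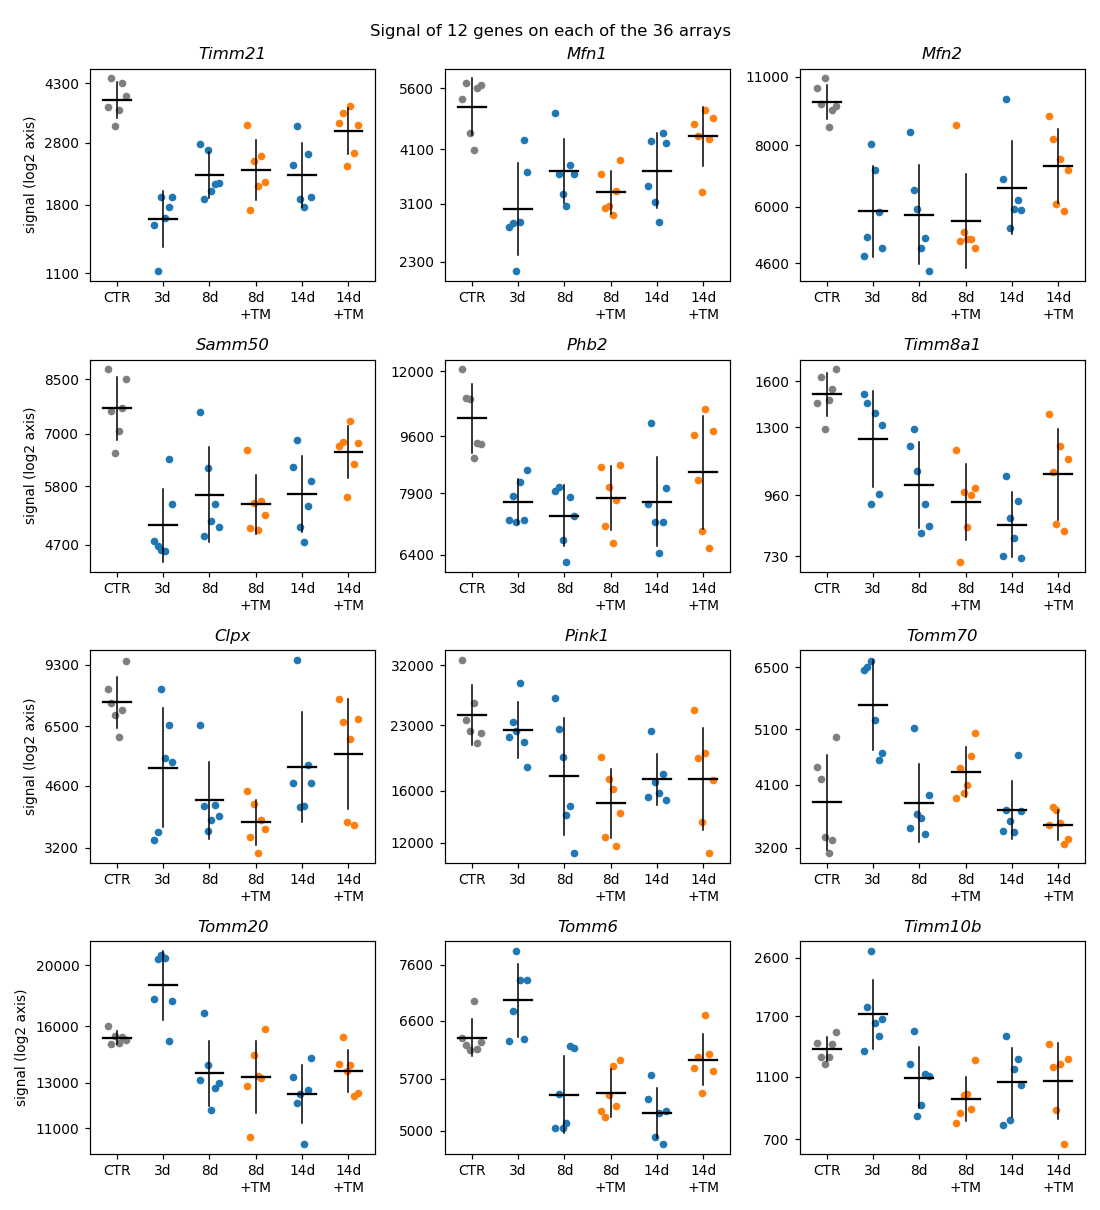
Signal on each of the 36 arrays for 12 of the genes (vertical axis, linear signal on a log2 axis; 6 rats per group; grey CTR, blue SCI, orange SCI with treadmill; horizontal bar mean and vertical bar SD, both of the log2 signal). Timm21 in SCI3d lies wholly below CTR, Tomm20 and Tomm6 in SCI14d lie wholly below both CTR and SCI3d, and 1 array of SCI8d+TM stands above the other 5 for Mfn2.

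Of the 3 genes of cristae and membrane assembly, Samm50 and Phb2 were lower at all 3 times and Immt was not called. Samm50, the core of the complex that inserts barrel proteins into the outer membrane, had 6539 to 8813 (median 7635) in CTR, 4594 to 6379.6 (median 4724) in SCI3d, 4844 to 7565 (median 5278) in SCI8d and 4742 to 6830.1 (median 5654) in SCI14d. All SCI3d arrays lay below CTR, and the later groups overlapped with it. The differences were -0.60 ± 0.11 (adjusted p = 0.000215) on day 3, -0.45 ± 0.11 (adjusted p = 0.0150) on day 8 and -0.44 ± 0.11 (adjusted p = 0.0253) on day 14. The day 3 call held under all 14 alternatives and without any 1 array. The day 8 call held without any 1 array and the day 14 call was lost without any of 5, and both were lost with the compared groups alone and in the methods' t-test after adjustment.

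Phb2, a prohibitin that forms ring-shaped scaffolds around inner membrane proteases, was 8916 to 12079.8 (median 10155) in CTR, 7174 to 8547 (median 7524) in SCI3d, 6245 to 8084 (median 7555) in SCI8d and 6451 to 10062 (median 7398) in SCI14d. The differences were of like size at the 3 times, at -0.41 ± 0.12 (adjusted p = 0.0116), -0.48 ± 0.12 (adjusted p = 0.0108) and -0.41 ± 0.12 (adjusted p = 0.0420). The day 14 call was lost without any of 10 of the 12 arrays and held under 8 of 15 alternatives. A much dimmer probe set of Phb2 was lower but not called on day 3 (-0.32 ± 0.31, adjusted p = 0.549). On all 3 days the call was lost on that probe set and with the mean of the gene's probe sets. The day 3 call was also lost with median centring. Immt, the core of the MICOS complex at cristae junctions, was not called, with -0.10 ± 0.10, -0.23 ± 0.10 and -0.22 ± 0.10 at the 3 times.

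Among the proteases, only Clpx and Afg3l2 were called, both on day 8. Clpx, the unfoldase that feeds the matrix protease ClpP, had 6127 to 9497 (median 7306) in CTR, 3352 to 8084 (median 5343) in SCI3d, 3542 to 6555 (median 3976) in SCI8d and 4069.9 to 9568 (median 4678) in SCI14d. On day 8 it was 0.565-fold of CTR (-0.82 ± 0.21, adjusted p = 0.0148), with 1 SCI8d array at 6555 inside the CTR range. The differences on days 3 and 14 did not pass (-0.55 ± 0.21, adjusted p = 0.0689, and -0.54 ± 0.21, adjusted p = 0.145). Its proteolytic partner Clpp was at 0.18 ± 0.16 on day 3 and -0.24 ± 0.16 on day 8, not called.

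Afg3l2, of the protease that faces the matrix from the inner membrane, was 967 to 1413 in SCI8d against 1184 to 1623 in CTR. Its difference on day 8 was -0.40 ± 0.12 (adjusted p = 0.0370) and was lost without any of 10 of the 12 arrays. Lonp1, the main matrix protease for oxidised proteins, and Yme1l1, the protease facing the space between the membranes, were not called against CTR, with differences between -0.24 and 0.19. Pmpca and Pmpcb, the subunits of the peptidase that removes presequences, were at 0.13 ± 0.11 and -0.01 ± 0.11 on day 3. A dimmer probe set of Pmpcb was higher on that day (1.14 ± 0.22, adjusted p = 0.000375) while the brighter one was not, so that the direction for Pmpcb depends on the probe set.

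The porins, channels for metabolites in the outer membrane, were among the brightest genes of the array. Vdac2 was lower on day 3 (-0.33 ± 0.11, adjusted p = 0.0361), with 15627 to 21466 (median 17041) in SCI3d and 20581 to 28169 (median 21459) in CTR. That call was lost without any of 7 of the 12 arrays. Vdac1 and Vdac3 were not called, at -0.38 ± 0.15 and -0.27 ± 0.12 on day 14, although all SCI14d arrays of Vdac3 lay below CTR.

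Pink1, the kinase that marks depolarised mitochondria for removal, did not pass the test on any of the 3 days, at -0.12 ± 0.18 (adjusted p = 0.727) on day 3, -0.49 ± 0.18 (adjusted p = 0.0984) on day 8 and -0.52 ± 0.18 (adjusted p = 0.106) on day 14. Its signal was 20838 to 32958 (median 22995) in CTR, 11319 to 26724 (median 16964) in SCI8d and 15213 to 22291 (median 16309) in SCI14d. The SCI8d arrays were the most scattered of these groups. The complex I assembly factor Timmdc1 was at 0.02, 0.05 and -0.17 on the 3 days, not called.

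**Figure D3:**
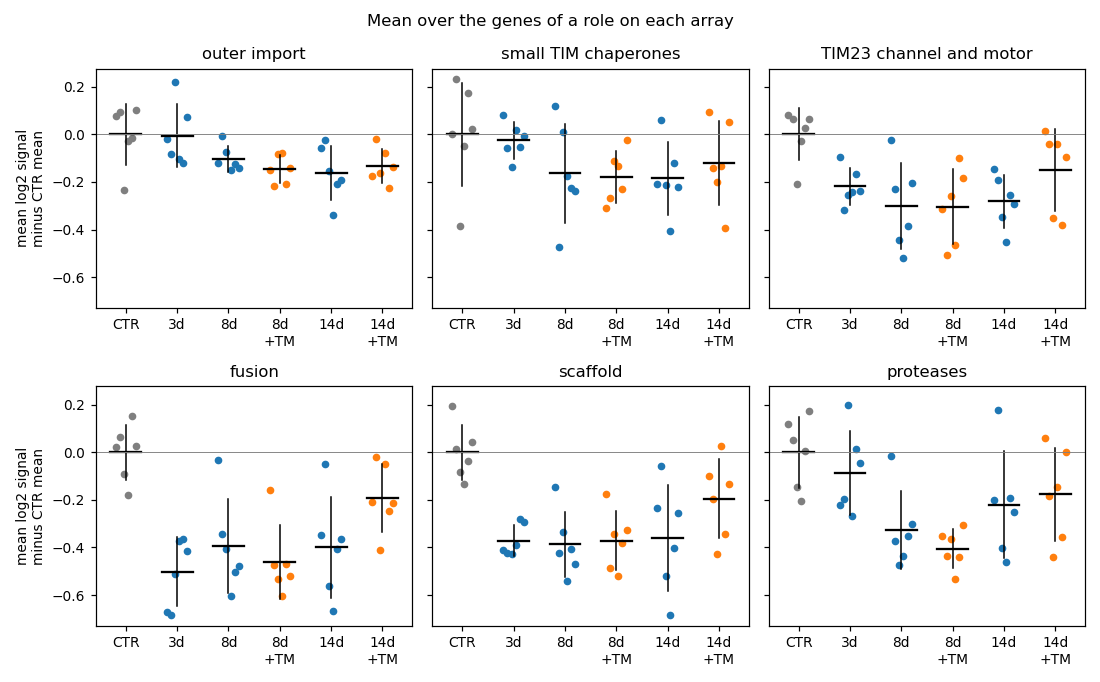
Mean over the genes of a role on each array, as log2 signal minus the CTR mean (vertical axis; 36 arrays, 6 per group; grey CTR, blue SCI, orange SCI with treadmill; horizontal bar mean, vertical bar SD). Outer import averaged -0.01 in SCI3d and -0.16 in SCI14d, while fusion genes averaged -0.50 and -0.40.

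Early and late times after SCI were then compared directly to see which members changed between them. From day 3 to day 14, 11 members were lower and 2 higher, against 6.82% of all genes lower and 10.7% higher, and the median member moved by -0.16 while the median gene moved by 0.15. Of the 11, 10 belong to import, the role of 9 outer import and 14 inner import genes among the 43 members. In the outer membrane these were Tomm20 (-0.58 ± 0.10, adjusted p = 0.000214), Tomm70 (-0.59 ± 0.12, adjusted p = 0.00107), Tomm6 (-0.41 ± 0.08, adjusted p = 0.000739) and the channel Tomm40 (-0.44 ± 0.11, adjusted p = 0.00624). Among the inner import genes they were Timm22 (-0.50 ± 0.12), Timm10b (-0.71 ± 0.18), Timm8a1 (-0.55 ± 0.15), Timm13 (-0.39 ± 0.11), Timm29 (-0.46 ± 0.13) and Timm50 (-0.48 ± 0.14). Tomm20, Tomm40, Tomm6 and Timm22 did not overlap between SCI3d and SCI14d. The calls of Timm8a1 and Timm29 were lost with the mean of their probe sets.

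The remaining member that was lower on day 14 than on day 3 was Lonp1 (-0.31 ± 0.11, adjusted p = 0.0438). This call was lost without any of 9 of the 12 arrays and under 7 of 14 alternatives, and with the mean of the probe sets of Lonp1 the difference turned to 0.34. Timm21 and Dnm1l went the other way (0.46 ± 0.15, adjusted p = 0.0435, and 0.48 ± 0.16, adjusted p = 0.0416), each from a low level on day 3. Both of these higher calls were lost with quantile normalization or median centring, and median centring raised the number of lower members to 22. With the model of the groups compared alone, 6 were lower. The day 3 group enters these differences and those from CTR alike, so a high value on day 3 contributes to both.

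Part of this difference was already measured on day 8. From day 3 to day 8, 5 members were lower and 0 higher, against 4.47% and 4.75% of all genes. These were Tomm20 (-0.47 ± 0.10, adjusted p = 0.00367), Tomm70 (-0.55 ± 0.12, adjusted p = 0.00382), Tomm6 (-0.34 ± 0.08, adjusted p = 0.00674), Timm10b (-0.66 ± 0.18, adjusted p = 0.0186) and Timm50 (-0.44 ± 0.14, adjusted p = 0.0481). None of the 5 was called when only the SCI3d and SCI8d arrays were fitted. Among the 4 groups without training, 14 members had their highest mean in SCI3d, 22 in CTR, 4 in SCI8d and 3 in SCI14d, where of all genes 23.8%, 28.6%, 17.4% and 30.2% did. The lowest mean was in SCI14d for 24 members, in SCI8d for 10, in SCI3d for 7 and in CTR for 2. Of all genes 14.4%, 20%, 37.5% and 28.1% had it in these groups, in that order.

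Treadmill training was examined within each day. On day 8, after 3 sessions, 0 of 43 members were called in either direction, as were 0% of all genes. An unadjusted p under 0.05 was found for 2 members of 43, Tomm34 (-0.35 ± 0.16) and Timmdc1 (-0.26 ± 0.10), and for 4.11% of all genes, so that the members' share was near the background. The members' median difference was -0.08 and 14 of 43 were higher on average, against 54.2% of all genes. With 6 rats per group, limma gave 95% intervals with a median half-width of 0.25 on the log2 scale, from 0.16 for Tomm6 to 1.08 for Timm8a2. These intervals are not adjusted for the number of probe sets, and the adjusted test needs larger differences than they do to make a call.

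On day 14, after 5 days of training, again 0 of 43 members and 0% of all genes were called, but 36 of 43 members had a higher mean in the trained rats, against 48.1% of all genes. The median difference was 0.12 for the members and -0.01 for all genes. Members share arrays and are not independent replicates, so no test was made on that count. The mean over the members, as log2 signal minus the CTR mean, was lowest within SCI14d on replicate 4, at -0.47. Within SCI14d+TM it was highest on replicate 1, at -0.05. These arrays had GAPDH 3′ to 5′ ratios, a sign of RNA quality, of 1.35 and 1.33, both above 1.3. Their part in that count was not tested. Unadjusted p-values under 0.05 were found for 6 members of 43, all higher with training, and for 6.9% of all genes. The largest among them was Timm21 (0.45 ± 0.15, 95% interval 0.14 to 0.77, adjusted p = 0.686), with 1762 to 3158 (median 2138) in SCI14d and 2378 to 3638 (median 3204) in SCI14d+TM. Its groups overlapped. The others were Timm8a1 (0.33 ± 0.15), Timm10 (0.32 ± 0.14), Timm13 (0.25 ± 0.11), Timmdc1 (0.24 ± 0.10) and Tomm6 (0.19 ± 0.08).

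Members of the other roles did not pass either. The fusion genes were at 0.26 for Mfn1, 0.14 for Mfn2 and 0.23 for Opa1, Samm50 was at 0.22 and Phb2 at 0.15, with adjusted p-values of 0.882, 0.975, 0.883, 0.863 and 0.953. Pink1 was at 0.00 (95% interval -0.36 to 0.37) and Clpx at 0.11 (95% interval -0.32 to 0.53). When the training effect on day 14 was set against that on day 8, the members' median was 0.19 and that of all genes -0.04. For this difference of effects 0 members and 0% of genes were called, and 7 of 43 members and 5.7% of all genes had an unadjusted p under 0.05.

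**Figure D4:**
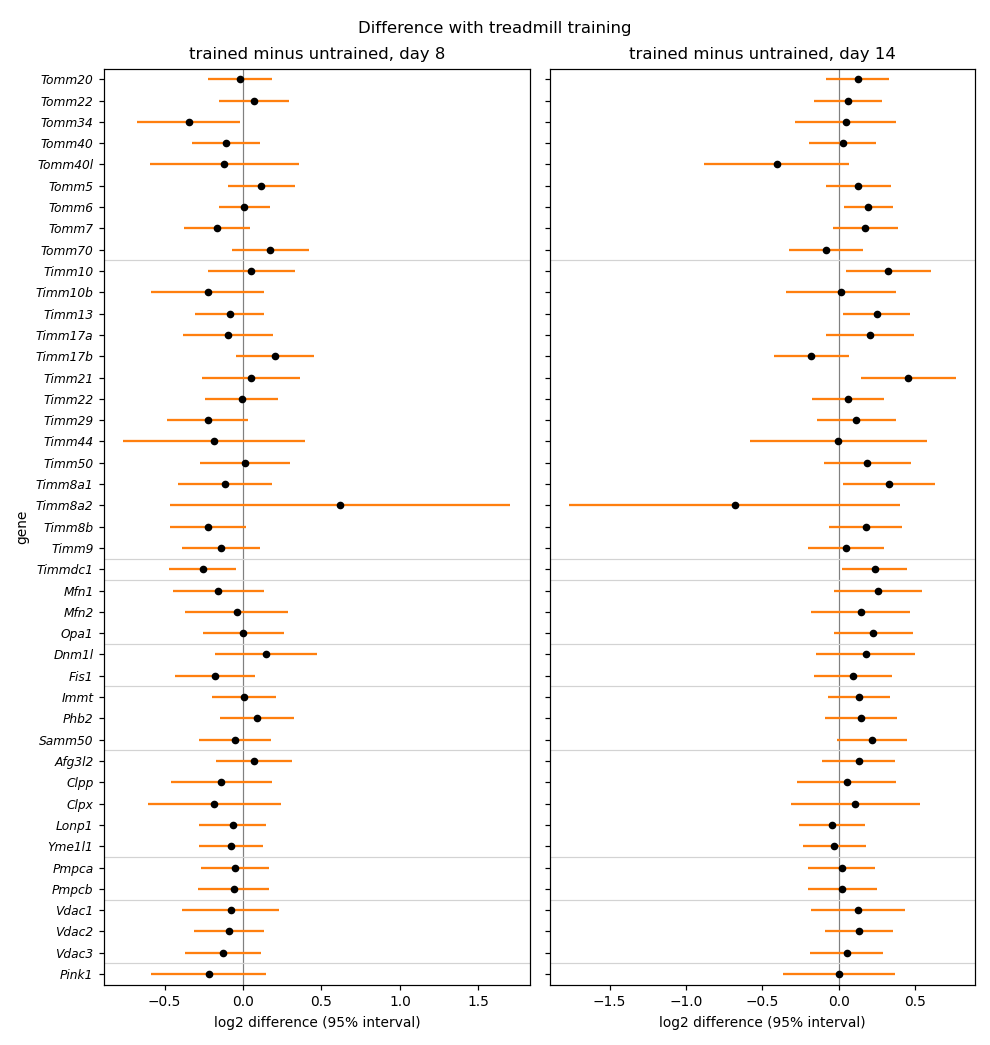
Log2 difference between trained and untrained injured rats of the same day for the 43 genes, with 95% intervals from limma (horizontal axis; left day 8, right day 14; 6 rats per group). On day 14, 36 of 43 points lie above 0 and no adjusted p was under 0.05, the lowest being 0.686 for Timm21.

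The trained groups were also set against CTR. In SCI8d+TM 12 members were lower and 0 higher, against 8.72% and 7.4% of all genes. Here Clpx was at 0.497-fold of CTR (-1.01 ± 0.21, adjusted p = 0.00164), Mfn2 at -0.80 ± 0.16, Timm21 at -0.72 ± 0.15, Timm8a1 at -0.70 ± 0.15, Mfn1 at -0.63 ± 0.14 and Samm50 at -0.50 ± 0.11. The other probe set of Timm8a1 was at 0.0688 (adjusted p = 0.829), and the call for that gene was also lost with the mean of its probe sets. Clpx ran from 3106 to 4460.3 in SCI8d+TM, below every CTR array. Pink1 (-0.71 ± 0.18, adjusted p = 0.00887) and Fis1 (-0.46 ± 0.13, adjusted p = 0.0144), which were not called in untrained rats, also lay below CTR on every array, at 11788 to 19255 and 4811 to 6728. The other called members were Phb2, Timm29, Tomm7 and Timm10b, with differences between -0.52 and -0.32. These 4 calls were less stable. Timm10b was lost without any of 11 of the 12 arrays, Tomm7 without any of 8, Timm29 without any of 4 and Phb2 without any of 3, and Timm10b and Phb2 were also lost with the mean of their probe sets.

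In SCI14d+TM 0 of 43 members differed from CTR by the test, against 0.106% of all genes lower and 0.394% higher, while 11 had an unadjusted p under 0.05, against 14.4% of all genes, and 35 had a lower mean than CTR, against 46.1% of all genes. Timm21 was at -0.32 ± 0.15 (adjusted p = 0.399), Mfn2 at -0.43 ± 0.16 (adjusted p = 0.250), Timm8a1 at -0.52 ± 0.15 (adjusted p = 0.117), Samm50 at -0.23 ± 0.11 and Pink1 at -0.51 ± 0.18. The trained and untrained groups share the CTR arrays, and a call in 1 of them and not in the other does not show that they differ. The direct test of that difference is the training comparison above, in which no member passed.

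Respiratory chain and mitochondrial ribosome genes gave a scale for these changes. Of 42 Nduf genes, which encode complex I subunits and assembly factors, 26, 17 and 15 were lower than CTR at the 3 successive times, with medians of -0.50, -0.44 and -0.46. Of 33 Cox and Uqcr genes 5, 8 and 10 were lower (medians -0.24, -0.37 and -0.30), and of 73 Mrpl and Mrps genes 15, 9 and 8 (medians -0.19, -0.31 and -0.30). The members' own medians of -0.06, -0.19 and -0.27 were nearer to 0 than those of the 3 families at each time, narrowly so on day 14 for the latter families, and these differences between families were not tested. In SCI14d+TM against SCI14d the medians were 0.21, 0.15 and 0.17 for Nduf, Cox and Uqcr, and Mrpl and Mrps genes, with 0 genes called in each family.

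**Figure D5:**
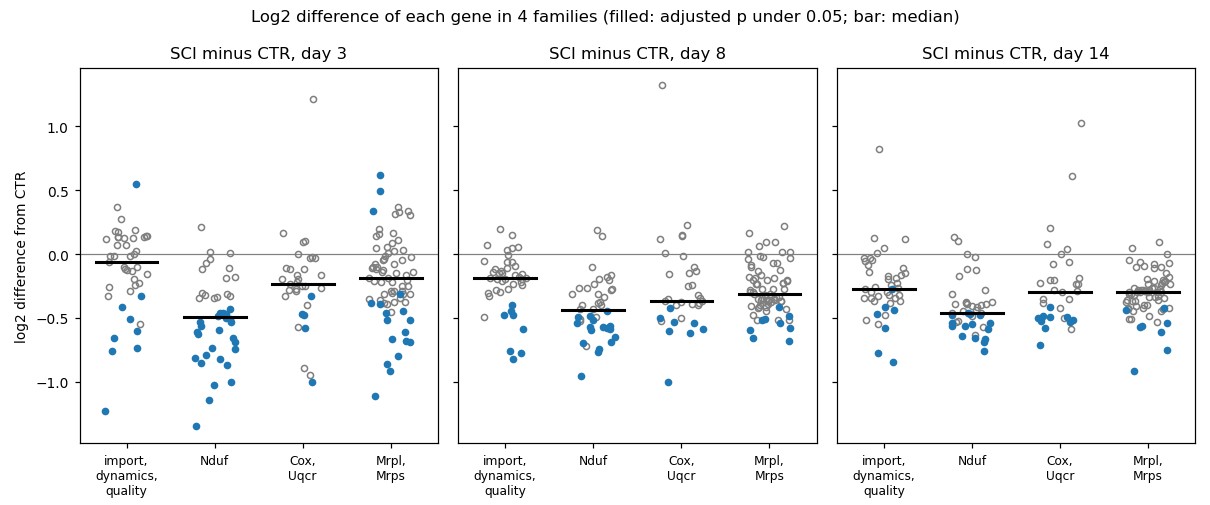
Log2 difference from CTR (vertical axis) for each of the 43 import, dynamics and quality control genes, 42 Nduf genes, 33 Cox and Uqcr genes and 73 Mrpl and Mrps genes on days 3, 8 and 14 after SCI (filled points, adjusted p under 0.05; horizontal bar, family median; points spread sideways for clarity). The Nduf median lies at -0.50 on day 3, against -0.06 for the import, dynamics and quality control genes.

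Other genes of the same pathways, 64 in all, were read from a list of import chaperones and assembly factors, cristae genes, fission adaptors and transport genes, further proteases and mitophagy genes. On day 3, 24 of them were lower and 7 higher, on day 8 14 were lower and 0 higher, and on day 14 11 were lower and 0 higher. Of all genes, 12.6%, 4.99% and 2.59% were lower at these times, and 8.98%, 3.44% and 1.86% were higher. Mtfp1, an inner membrane protein needed for fission, had the deepest fall of the list, at -2.82 ± 0.31 (adjusted p = 1.05e-07) on day 3, followed by -1.93 ± 0.31 and -1.54 ± 0.31 at the later times. Aifm1, which takes part in oxidative import (-0.78 ± 0.12, adjusted p = 1.72e-05), Trak1, an adaptor for transport along microtubules (-1.05 ± 0.17, adjusted p = 2.78e-05), and Mff, the receptor of Dnm1l (-0.73 ± 0.12, adjusted p = 4.15e-05), followed on day 3.

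On the later days the cristae genes Chchd3 (-0.73 ± 0.14, adjusted p = 0.00439) and Chchd10 (-0.89 ± 0.20, adjusted p = 0.0124) and the import motor gene Dnajc19 (-0.59 ± 0.12, adjusted p = 0.00682) were lower on day 14. On day 8 Dnajc19 (-0.63 ± 0.12), Chchd10 (-1.02 ± 0.20) and Trak1 (-0.96 ± 0.17) were lower next to Mtfp1. By contrast Tax1bp1 and Sqstm1, receptors of selective autophagy, were higher on day 3 (0.69 ± 0.11, adjusted p = 4.85e-05, and 0.56 ± 0.12, adjusted p = 0.000940), as were the phosphatase Pgam5 (1.06 ± 0.20) and the import genes Gfer (0.44 ± 0.12) and Grpel2 (0.50 ± 0.15). With training 0 of the 64 were called on either day. In SCI14d+TM, Spg7, the partner of Afg3l2, was the only gene of the list called against CTR (-0.80 ± 0.17, adjusted p = 0.0270).

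Genes that mark the cell types of the sample moved in part with these differences. Slow fibre markers were strongly expressed on every array, with a summed signal of 196846 to 531759 over 8 genes, and 0 of 8 were called at any time. Their sum was 357130 to 517977 (median 385953) in CTR and 196846 to 423694 (median 325463) in SCI14d. The medians in SCI3d and SCI8d were 360044 and 374442, and the sums were not tested. Of 6 adipocyte markers 4 were lower on day 3 and 1 each on days 8 and 14, with a summed signal of 15313 to 44275 in CTR, 7342 to 18934 in SCI3d and 9042 to 31530 in SCI14d. Of 4 erythrocyte markers 3 were higher on days 3 and 8, with sums of 35742 to 48127 in CTR and 40579 to 76464 in SCI3d. Of 8 fibroblast markers 1 was lower on day 3, 1 higher on days 8 and 14, and 5 higher in SCI8d+TM, where the sum was 164710 to 216989 against 56981 to 204395 in CTR.

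Of 10 macrophage and leukocyte markers 1 was higher on day 3 and 3 in SCI8d+TM, with a sum of 15408 to 32924 in CTR and 23882 to 45320 in SCI8d+TM. Of 5 endothelial markers 1 was lower, in SCI8d+TM only. No marker of any list had a group mean of 0. The lowest signal of any probe set was 0.0872, so this does not show that a marker was detected. The part of the markers in the differences of the import, dynamics and quality control genes was not tested. The GAPDH 3′ to 5′ ratio, a sign of RNA quality, was 1.02 to 1.61 over the arrays. The 3 arrays above 1.3 were CTR replicate 3, SCI14d replicate 4 and SCI14d+TM replicate 1. Without those 3 the counts against CTR were 8 lower and 1 higher on day 3, 7 lower on day 8 and 4 lower on day 14.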

How the data were processed

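RNA of 36 left soleus muscles, 1 array per rat and 6 rats per group, was hybridised to Affymetrix rat arrays. The authors made linear signal intensity values in Microarray Suite and scaled each array, and these intensity values were used as deposited. They hold 31099 probe sets, of which 57 controls were left out. Array medians ran from 166.4 to 234.3, and the mean without the outer 2% at each end was 800.3 to 800.4. The number of arrays limits the precision.

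Signals were log2 transformed with no offset and fitted in limma 3.58.1 (R 4.3.3) as a model of 6 groups with 30 residual degrees of freedom and an intensity trend. Each p was adjusted by Benjamini-Hochberg over 31042 probe sets and called under 0.05. Shares of all genes refer to 14217 genes with 1 probe set each. All members could be named, with values in all groups for up to 3 per role by the smallest F test p, called members up to 10 per comparison, and up to 4 called genes per comparison from the pathway list by the smallest p; further pathway genes higher on day 3 were named after their values were seen. The members and all lists were chosen with earlier results of these data known. Groups follow the labels. Replicate numbers were not taken to pair the rats. Deviations of arrays with the same number correlated between -0.12 and 0.16, which were not compared with arrays of different numbers. The model was checked on simulated data. Alternatives were other normalizations, an offset of 32, leaving out the dimmest 40% of probe sets, other models and probe sets, the methods' t-test and each array left out in turn. RefSeq symbols matched for all 43 members, and 0 other columns of values per sample were left aside.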

Additional observations from a re-analysis of the deposited data

Results flagged for a closer look

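In each group of 6 arrays, the highest or lowest array was compared with the rest for the 24 members described by role, by its gap to the nearest array as a share of the group's range of log2 signal, with Dixon's limit for 6 arrays. Of 144 groups 16 held such an array, where chance gives about 1 in 20. No explanation was tested, and all arrays stayed in the results above.

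In SCI8d+TM, replicate 1 stood high for Mfn2, at 8778 with the nearest array at 5321 (0.870), and for Samm50, at 6610 with the nearest at 5508 (0.630). In SCI14d, replicate 2 stood high for Clpx, at 9568 with the nearest at 5198 (0.714), for Lonp1 (0.675) and for Pink1 (0.632), replicate 5 for Tomm70 (0.713) and replicate 1 for Dnm1l (0.674), and replicate 4 stood low for Vdac3 (0.671). In SCI8d, replicate 1 stood high for Clpx, at 6555 with the nearest at 4118 (0.755), and replicate 2 for Tomm70 (0.628). In CTR, replicate 4 stood high for Tomm6 (0.769) and low for Afg3l2 (0.718), and replicate 1 high for Vdac2 (0.755). In SCI14d+TM, replicate 3 stood low for Mfn1 (0.645), replicate 1 high for Lonp1 (0.696) and replicate 2 high for Vdac2 (0.640).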

How the results depend on the processing

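The count of members lower on day 14 (7 against CTR) was the least stable. It was 14 with median centring, 12 with array weights, 11 without the dimmest 40% of probe sets, 4 without the intensity trend, 4 with the compared groups alone, 3 with quantile normalization and 4 without the 3 arrays of GAPDH ratio above 1.3, an alternative chosen after seeing the data. Leaving out 1 array gave 2 to 10, with 2 without CTR replicate 1, SCI14d replicate 3 or SCI14d replicate 4, 3 without CTR replicates 2 or 6 or SCI14d replicate 6, and 4 without CTR replicate 5 or SCI14d replicate 5. The cause was not tested. Median centring moved the median of all genes by more than 0.1 in several comparisons, for example from 0.06 to -0.07 for SCI14d and from 0.03 to -0.12 for SCI8d+TM against CTR.

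On day 3 the 8 lower members were 4 with median centring and 5 with the compared groups alone, and 5 to 10 without 1 array (5 without CTR replicate 1 or SCI3d replicate 2). The 1 higher member became 2 with quantile normalization, median centring or the dimmest 40% left out, 3 with a gene's probe sets averaged, and 1 to 2 without 1 array (2 without SCI3d replicate 5). Day 8 gave 6 to 9 lower without 1 array. For SCI8d+TM against CTR (12 lower) the count was 27 with median centring, 19 with array weights and 8 to 13 without 1 array. For SCI14d+TM against CTR it was 1 instead of 0 with array weights or without the arrays of high GAPDH ratio. From day 3 to day 8 the 5 lower members were 11 with median centring and 0 with the compared groups alone, and 3 to 6 without 1 array (3 without SCI3d replicate 3 or SCI8d replicates 3 or 4). The count of 0 higher was 1 without the dimmest 40%, with the mean of probe sets, without the high GAPDH ratio arrays, and 0 to 1 without 1 array (1 without SCI3d replicate 6 or SCI8d replicate 2). From day 3 to day 14 the 11 lower members were 22 with median centring and 6 with the compared groups alone, and 9 to 12 without 1 array. The 2 higher were 0 with quantile normalization, median centring, no trend or the compared groups alone, 1 with array weights, and 0 to 3 without 1 array (0 without SCI3d replicates 2 or 4 or SCI14d replicates 1, 2 or 5, 1 without SCI3d replicate 1 or SCI14d replicate 6). The F test gave 18 to 24 members without 1 array.

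The methods' t-test at its unadjusted threshold gave 4 higher on day 3, 20 lower on day 8, 21 lower on day 14, 3 lower with training on day 8 and 3 higher on day 14, 26 lower and 1 higher in SCI8d+TM and 14 lower in SCI14d+TM against CTR, 12 lower and 3 higher from day 3 to day 8, and 4 higher from day 3 to day 14. After adjustment it gave 5 lower and 2 higher on day 3, 4 lower on day 14, 0 lower from day 3 to day 8, and 5 lower and 0 higher from day 3 to day 14. It was not run for the difference of training effects, and no array had a GAPDH ratio above 3.

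With the replicate number as a block, although the numbers were not taken to pair the rats, 8 members were lower and 1 higher on day 3, 9 lower on day 8, 9 lower on day 14, 13 lower in SCI8d+TM, and 11 lower and 1 higher from day 3 to day 14. Directions turned for Pmpcb on day 3 (0.56 with the mean of its probe sets, 1.14 on the other one), Lonp1 from day 3 to day 14 (0.34 with the mean of its probe sets) and Timm8a1 in SCI8d+TM (0.0688 on the other one), where a dimmer probe set enters. Counts with training stayed at 0 on both days under every alternative but the unadjusted t-test.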
